A study of Arabidopsis thaliana with 3 samples.

Results

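The genes described here encode proteins of the thylakoid, the internal chloroplast membrane on which the light reactions of photosynthesis take place. They were listed as 60 loci of Arabidopsis thaliana in 9 classes: the PsbP and PsbQ families, lumenal immunophilins, pentapeptide proteins, other lumen proteins, CURT1 proteins, antenna proteins, small photosystem subunits, and a class of electron transport and ATP synthase. The tables that pair array features with genes gave 33 features for 29 of the loci. The other 31 loci, among them all 4 of the PsbQ family, were not analysed here. All 29 passed the filter on dim features described below, out of 28785 features on the array and 16905 tested.

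Rosette leaves of Col-0 plants, 2 weeks old, gave the total RNA, with 1 array per sample. One group was wild type, with 1 array. The other held plants numbered 41 and 45, with 1 array each, which carry 35S::AtMYB23SRDX and are called line 41 and line 45 here. The 35S promoter of cauliflower mosaic virus is active in most plant tissues, MYB23 is a transcription factor known from leaf hair formation, and SRDX is a short repression domain. The labels do not say whether a sample was 1 plant or a pool, nor whether the numbers are independent transformants. P-values therefore set the change from wild type against a spread seen only between line 41 and line 45, pooled largely over all features. The lone wild-type array was assumed to vary like the lines, so variation among wild-type samples was not measured.

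In the light reactions, antenna proteins bind chlorophyll and pass excitation energy to photosystem II and photosystem I, and electrons then move through the cytochrome b6f complex and plastocyanin. The lumen, the space enclosed by the membrane, holds the extrinsic PsbP and PsbQ proteins of the water-splitting complex, their relatives, and immunophilins, a class of proteins that includes peptidyl-prolyl isomerases. CURT1 proteins bend the membrane at the margins of grana stacks. Of the 29 genes, 10 carry a symbol or synonym in the gene table used and 19 only a locus tag, so the latter are described by class alone.

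Values are log2 units as deposited. A change is the mean of the lines minus wild type, given with its standard error from limma, a linear model fitted over all features, and a gene is said to have risen where its Benjamini-Hochberg adjusted p was under 0.05. The median of all values was 5.96 in wild type against 5.89 (line 41) and 5.91 (line 45), while percentile 99 was 9.62, 10.63 and 10.54. The leaf marker RCA, for the activase of Rubisco, was bright on every array at 11.90 in wild type against 14.13 (line 41) and 13.75 (line 45). By the brightest of its 3 features RCA rose 4.12-fold (change 2.04 ± 0.26, adjusted p = 0.00145 by limma). Of 6 mesophyll markers it was the 1 with a feature. Of the 28 markers of other cell types and organs, 2 had features. The guard cell factor FAMA stood at 7.31, 6.82 and 6.89 (change -0.46 ± 0.22, adjusted p = 0.173 by limma), and the root-type glucosidase PYK10 rose from 5.80 to 6.69 in both lines (0.88 ± 0.20, adjusted p = 0.0191). The part of other tissues in the results was not tested.

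Of the 29 thylakoid genes, 15 rose in the lines, 0 fell and 14 did not pass. Over all features tested limma called 14.6% higher and 7.28% lower. CURT1C and AT4G02530, counted among the 15, were dim in wild type and passed the filter on dim features through the lines. With that filter set on wild type, which also left out AT5G13410, 13 of 26 genes rose, against 12.1% of all features then tested. The median change of the 29 genes was 0.81, against -0.04 over all features. The changes ran from -0.53 for AT1G76450 of the PsbP family to 3.78 as measured for CURT1C, whose wild-type value is too dim for more than a lower bound of 3.06. Both lines lay above wild type for 22 genes (75.9%), against 39.1% of all features, and below it for 3 genes. The lines lay on opposite sides of wild type for 3 genes, against 16.4% of all features. The remaining gene, AT5G13410, had the same value in wild type and in a line. At least 2-fold above wild type in both lines were 12 genes, against 9.76% of all features, and 0 genes were 2-fold below it in both, against 1.44%. With the filter on wild type the count above was 10. Risen genes were found in all 7 classes other than the PsbP family that had a feature, with all measured members of the CURT1, small subunit and electron transport classes among them. More messenger RNA per cell and more chloroplast-bearing cells cannot be told apart in such tissue samples.

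**Figure D1:**
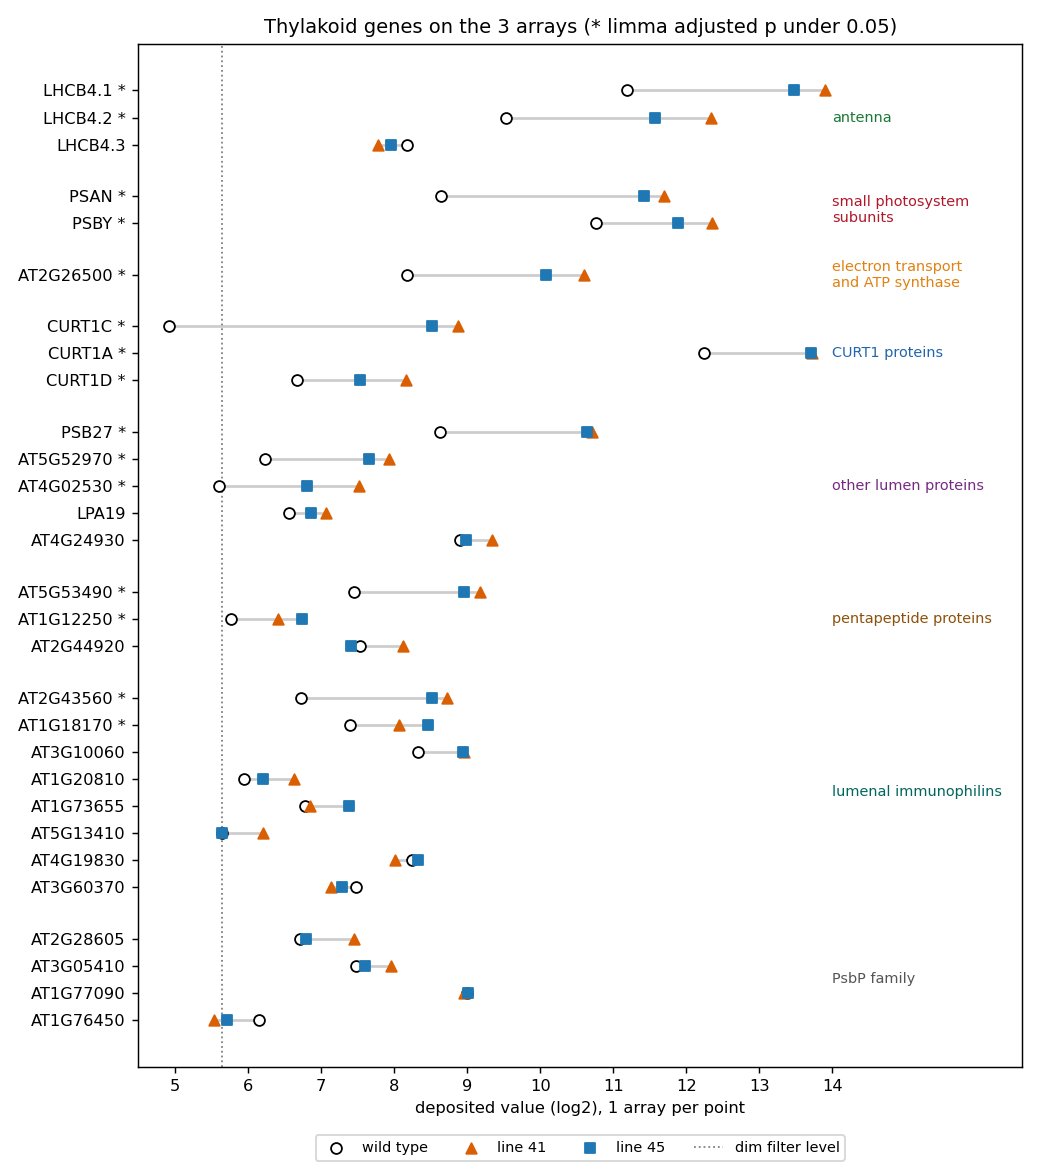
Deposited log2 value of each of the 29 thylakoid genes in wild type (open circle), line 41 (triangle) and line 45 (square), 1 array per point, by class, with the dim filter level of 5.64 as a dotted line and asterisks for limma adjusted p under 0.05. CURT1C moves from 4.92 to 8.88 and 8.52, while the 4 PsbP family genes lie between -0.62 and 0.73 of wild type in either line.

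These limits apply to all of the calls. Without the filter on dim features limma called 0 features of the whole table, with 7167 at an unadjusted p under 0.05, and so none of the 15 genes. The values are as deposited, and after quantile normalization or cyclic loess 12 of the 15 passed, as given below for the genes concerned.

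The antenna class was measured by the 3 genes for CP29, a minor antenna protein that connects the major light-harvesting complex to the core of photosystem II. LHCB4.1 (AT5G01530) stood at 11.18 in wild type against 13.90 (line 41) and 13.47 (line 45), and rose 5.68-fold (change 2.51 ± 0.27). LHCB4.2 (AT3G08940) stood at 9.53, 12.33 and 11.58 and rose 5.35-fold (2.42 ± 0.33). Both lines lay more than 2 log2 units above wild type for both genes. LHCB4.3 (AT2G40100), the third CP29 gene, stood at 8.17, 7.78 and 7.96, just below wild type in both lines, and did not pass (change -0.30, 95% confidence interval -0.83 to 0.23, adjusted p = 0.401 by limma).

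The change of LHCB4.1 exceeded that of LHCB4.3 by 3.11 in line 41 and 2.50 in line 45, and that of LHCB4.2 exceeded it by 3.19 and 2.25. These differences of changes were not tested. A second feature of LHCB4.2 stood at 8.64, 12.57 and 11.93, a change of 3.62 against 2.42 for the brighter feature. LHCB4.1 and LHCB4.2 are close copies and may share signal on an array. The rise of LHCB4.1 depended on scaling: it was 0.80 after quantile normalization (adjusted p = 0.00991) and 0.54 after cyclic loess, where it did not pass (adjusted p = 0.159 by limma). LHCB4.2 passed in both, at 1.31 and 1.24.

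Of the 8 small photosystem subunits, 2 had a feature and both rose. PSAN (AT5G64040), a lumenal subunit of photosystem I that takes part in the docking of plastocyanin, stood at 8.64 in wild type against 11.70 (line 41) and 11.42 (line 45). It rose 7.56-fold (change 2.92 ± 0.25, adjusted p = 0.000358), a rise exceeded by that of CURT1C and by the second features of LHCB4.2 and AT2G26500. PSBY (AT1G67740), a small membrane subunit of photosystem II, stood at 10.76, 12.35 and 11.89 and rose 2.56-fold (1.36 ± 0.27, adjusted p = 0.0112). Under the other scalings PSAN passed at 2.19 (quantile) and 1.98 (loess), while PSBY turned to -0.13 (adjusted p = 0.664) and -0.052 (adjusted p = 0.917 by limma).

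AT2G26500 was the only measured locus of 6 in the class of electron transport and ATP synthase. It stood at 8.18 in wild type against 10.60 (line 41) and 10.08 (line 45) and rose 4.48-fold (change 2.16 ± 0.28, adjusted p = 0.00160 by limma). A second, dimmer feature of the gene stood at 6.17, 9.37 and 9.34, a change of 3.18. Both features put both lines well above wild type, though by different amounts.

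All 3 measured CURT1 genes of 4 rose, with very different sizes and wild-type levels. CURT1C (AT1G52220) stood at 4.92 in wild type against 8.88 (line 41) and 8.52 (line 45) (change 3.78 ± 0.24). Its wild-type value is under the dim filter level of 5.64, so the gene passed the filter through the lines, and with wild type raised to that level the rise was at least 8.34-fold. CURT1D (AT4G38100) stood at 6.67, 8.16 and 7.53 and rose 2.25-fold (1.17 ± 0.29, adjusted p = 0.0262). CURT1A (AT4G01150), the brightest of the 29 genes in wild type, stood at 12.24, 13.72 and 13.71 and rose 2.78-fold (1.48 ± 0.23, adjusted p = 0.00370 by limma). The lines nearly coincided for CURT1A and stood 0.63 apart for CURT1D. CURT1A lost its rise under the other scalings, with 0.02 after quantile normalization (adjusted p = 0.940) and -0.67 after cyclic loess (adjusted p = 0.0787), whereas CURT1C kept 3.71 and 3.82 and CURT1D 1.08 and 1.201.

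**Figure D2:**
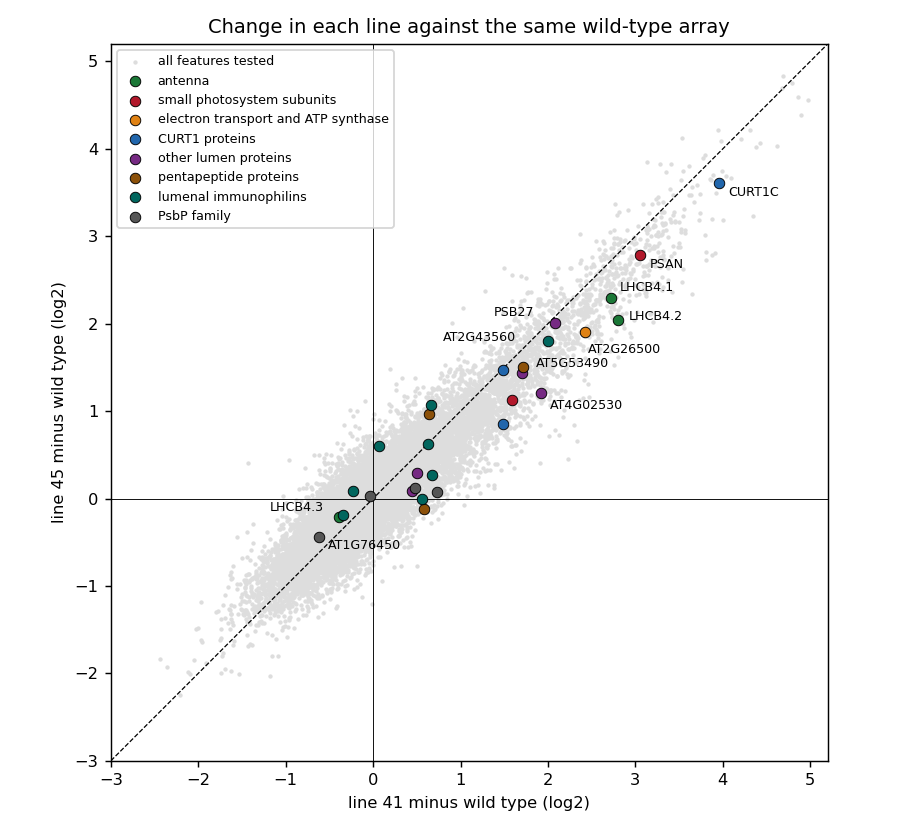
Change of line 41 (x axis) and line 45 (y axis) from the same wild-type array, in log2 units, for the 29 thylakoid genes coloured by class and for all 16905 features tested in grey, with equality dashed. CURT1C, PSAN, LHCB4.1 and LHCB4.2 lie at the upper right, and 21 of the 29 genes lie below the dashed line, higher in line 41.

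Among the other lumen proteins 5 of 7 loci were measured, and 3 rose. PSB27 (AT1G03600), which binds photosystem II during its assembly and repair, stood at 8.63 in wild type against 10.71 (line 41) and 10.64 (line 45) and rose 4.13-fold (change 2.05 ± 0.23, adjusted p = 0.000943). Its relative LPA19 (AT1G05385), known from maturation of the D1 protein, stood at 6.56, 7.07 and 6.86 and did not pass (0.40, 95% confidence interval -0.11 to 0.91, adjusted p = 0.246 by limma). AT5G52970 stood at 6.23, 7.93 and 7.66 and rose 2.96-fold. AT4G02530 stood at 5.60, 7.52 and 6.81, from a wild-type value just under the dim level, and rose at least 2.88-fold (1.56 ± 0.30, adjusted p = 0.00955). AT4G24930 stood at 8.90, 9.34 and 8.98, with line 45 close to wild type, and did not pass (adjusted p = 0.520 by limma). Its change of 0.26 turned to -0.28 after quantile normalization and -0.079 after cyclic loess.

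Pentapeptide proteins, named for a repeat of 5 residues, were measured by all 3 loci, and 2 rose. AT5G53490 stood at 7.46 in wild type against 9.18 (line 41) and 8.96 (line 45) and rose 3.05-fold (change 1.61 ± 0.24, adjusted p = 0.00278), with a second feature at 1.32. AT1G12250 stood at 5.77, 6.41 and 6.74 and rose 1.75-fold (0.81 ± 0.23, adjusted p = 0.0389 by limma). AT2G44920 stood at 7.53, 8.12 and 7.41, with the lines on either side of wild type, and did not pass (0.23, 95% confidence interval -0.49 to 0.95, adjusted p = 0.649). Its second feature stood at 6.76, 6.93 and 7.14, with line 45 the higher line there, a change of 0.28.

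The lumenal immunophilins were measured by 8 of 11 loci, of which 2 rose, 0 fell and 6 did not pass. Limma called 14.6% of all features tested higher, and 2 of 8 genes is not clearly apart from that share. The median change of the class was 0.40. AT2G43560 stood at 6.72 in wild type against 8.72 (line 41) and 8.52 (line 45) and rose 3.73-fold (1.90 ± 0.23, adjusted p = 0.00122), well apart from the others of its class. AT1G18170 stood at 7.40, 8.06 and 8.47 and rose 1.82-fold (0.87 ± 0.26, adjusted p = 0.0470 by limma). It did not pass after quantile normalization (0.67, adjusted p = 0.0647 by limma). With the mean over features of a gene in place of the brightest its adjusted p was 0.0505 by limma. AT1G18170 has no second feature, so its change stayed at 0.87 there and only the fit over all features differed.

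AT3G10060 stood at 8.33 in wild type and 8.95 in both lines, a change of 0.62 with an adjusted p of 0.0910 by limma. At the lower end of the class, AT3G60370 stood at 7.48, 7.13 and 7.29 (change -0.26, adjusted p = 0.450), AT4G19830 at 8.24, 8.02 and 8.32 (-0.07), and AT5G13410 at 5.65, 6.21 and 5.65 (0.28). For the last gene wild type and line 45 hold the same deposited value, as do 24 features of the table in that pair of arrays. AT1G20810 and AT1G73655 had changes of 0.47 and 0.33.

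Of 11 PsbP family loci 4 were measured, and none of the 4 passed limma at an adjusted or, but for AT1G76450, an unadjusted p under 0.05. AT1G76450 stood at 6.15 in wild type against 5.53 (line 41) and 5.72 (line 45), the lowest change of all 29 genes (-0.53 ± 0.20, unadjusted p = 0.0283, adjusted p = 0.0969 by limma). AT1G77090 stood at 8.99, 8.95 and 9.02, with all 3 arrays nearly equal (-0.0076, 95% confidence interval -0.54 to 0.52). AT2G28605 stood at 6.72, 7.45 and 6.79, and AT3G05410 at 7.48, 7.96 and 7.60, so that for both genes only line 41 stood clear of wild type, and their changes were 0.41 and 0.30. The class median was 0.15 as deposited, -0.18 after quantile normalization and -0.0095 after cyclic loess. The extrinsic subunits PSBP-1 and PSBP-2 themselves were not analysed here.

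Compared with features of similar wild-type signal, most of the 29 genes lay high. When the 16905 features were ranked by wild-type value and divided into 10 bins of equal size, 25 of the 29 had a change above the median of their bin, and 10 lay above percentile 90 of their bin. The brightest bin, with wild-type values from 8.32 up, had a median change of -0.12 with 19.5% of its features called higher. It held 9 of the genes, of which 6 rose, with a median change of 1.48. PSAN lay at percentile 98.2 of that bin, LHCB4.1 at 96.2, LHCB4.2 at 95.9 and PSB27 at 93.1, while PSBY (86.8) and CURT1A (88.4) lay under percentile 90.

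In the brightest 3 bins together, 9 of 17 genes rose against 15.7% of all features there, and in the other 7 bins 6 of 12 rose against 14.1%. Of those 12, CURT1C and AT4G02530 passed the dim filter through the lines, and 4 of the 10 without them rose. The 14.1% still counts other features that passed through the lines, so it is not a like share for those 10. The dimmest bin is shaped by the same filter, with 32.2% of its features called higher, 0% lower and a median change of 0.41, and AT1G12250, at 0.81, lay at percentile 70.5 of it. Ranked by the mean of the 3 arrays, which rises with the lines, 23 genes lay above the median of their bin and 6 above its percentile 90. The brightest of those bins had a median change of 0.58 with 44.3% of features called higher, and it held 11 of the genes, of which 8 rose. These are descriptions of the 29 genes beside other features, without a test of the list.

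**Figure D3:**
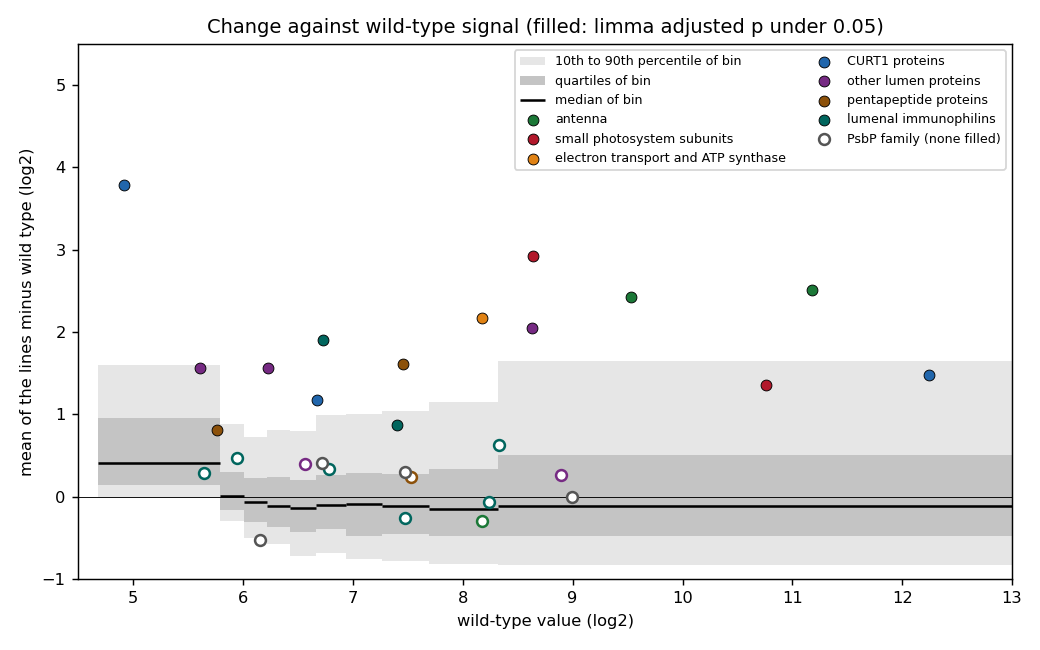
Mean change of the lines from wild type (log2, y axis) against the wild-type value (log2, x axis) for the 29 thylakoid genes, filled where limma's adjusted p was under 0.05, over the median, quartiles and percentiles 10 to 90 of all tested features in 10 bins of wild-type value. The risen genes lie above the quartile band of their bin except AT1G12250 at 0.81 in the dimmest bin, and LHCB4.3 and the PsbP family genes lie near or below 0.5.

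Under quantile normalization and cyclic loess, rises shrank most for the brightest genes. In the brightest bin of wild type, quantile normalization moved the changes of the 9 genes by a median of -0.73, from a median change of 1.48 to 0.24, and cyclic loess moved them by -0.94. The other 20 genes moved by a median of -0.08 and 0.04. The 3 calls lost after cyclic loess were CURT1A, LHCB4.1 and PSBY, the 3 brightest of the 29 genes in wild type. Quantile normalization lost CURT1A, PSBY and AT1G18170. Across all features 66.7% of limma's calls were higher as deposited, 49.4% after quantile normalization and 66.3% after cyclic loess.

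**Figure D4:**
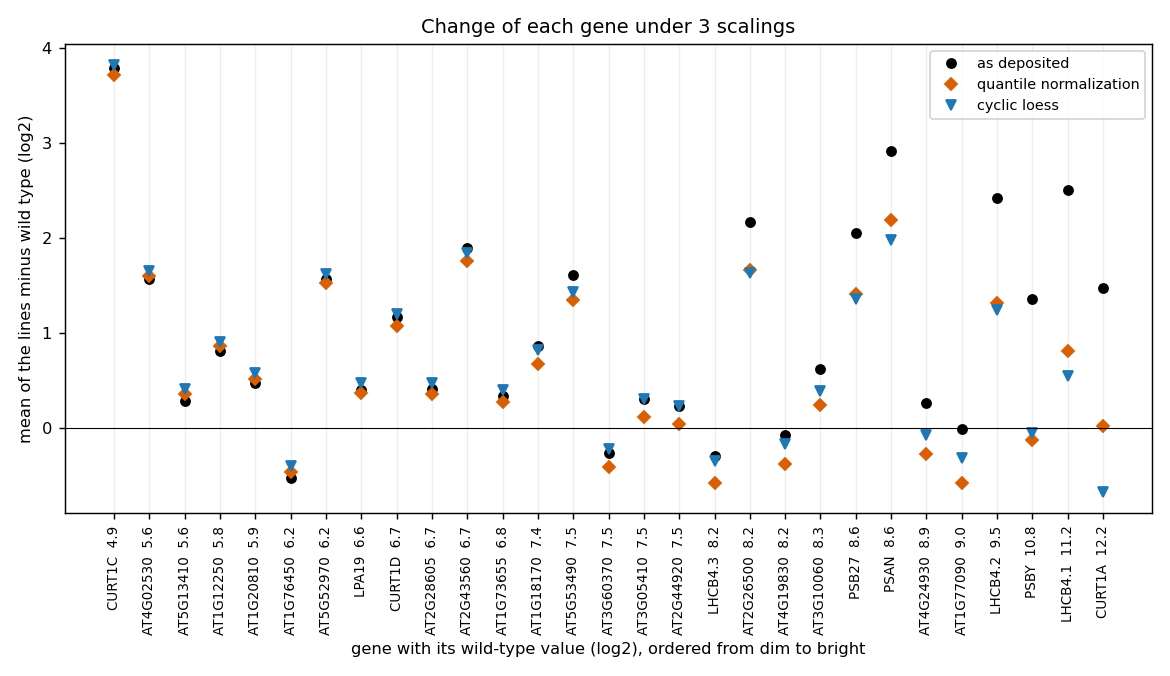
Mean change of the lines from wild type (log2, y axis) for each of the 29 thylakoid genes as deposited (circle), after quantile normalization (diamond) and after cyclic loess (triangle), with genes ordered by wild-type value from dim to bright. The 3 scalings nearly coincide for dim genes such as CURT1C, at 3.78, 3.71 and 3.82, and separate for the brightest, CURT1A, at 1.48, 0.02 and -0.67.

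Line 41 and line 45 differed by less than the change from wild type for all 15 risen genes, and by more than it for 8 of the other 14. The call itself weighs the change against that difference, so this split follows in part from how the genes were called. The same split was not counted over all features. The absolute difference between the lines had a median of 0.35 over the 29 genes, against 0.18 over all features. None of the 29 stood 2-fold apart, against 0.491% of all features, a share too small for that count to say much. These are descriptions without a test. Line 41 was the higher line for 21 genes (72.4%), against 49.5% of all features, and line 45 for 8. The median difference was 0.27, against -0.0023 over all features. The genes furthest above in line 41 were LHCB4.2 by 0.75, AT4G02530 by 0.71 and AT2G44920 by 0.71. Line 45 was the higher line by 0.53 for AT1G73655, 0.41 for AT1G18170 and 0.33 for AT1G12250. Both changes use the same wild-type array, so their likeness is not independent support.

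A list of 63 other photosynthesis genes, chosen with earlier results of these data known, had 5 with a feature, of which 4 were tested and all 4 rose. Of all features tested 14.6% were called higher. The share was 19.5% in the brightest bin of wild type, which held PSAE1, PORB and ATPC1, and 32.2% in the dimmest, which held AT5G28750. PSAE1 (AT4G28750), for a stromal subunit of photosystem I, stood at 9.99 in wild type against 12.96 (line 41) and 12.59 (line 45) and rose 6.90-fold (change 2.79 ± 0.26). PORB (AT4G27440), an enzyme of chlorophyll synthesis, stood at 9.45, 11.47 and 11.60 and rose 4.24-fold (2.08 ± 0.24), with line 45 the higher line. AT5G28750 stood at 5.77, 7.58 and 7.12 and rose 2.99-fold. ATPC1 (AT4G04640), the gamma subunit of chloroplast ATP synthase, stood at 9.42, 10.82 and 10.85 and rose 2.66-fold (1.41 ± 0.23, adjusted p = 0.00471 by limma), but did not pass after quantile normalization (0.45, adjusted p = 0.130) or cyclic loess (0.57, adjusted p = 0.124). Under the same 2 scalings PSAE1 passed at 1.54 and 1.29, and PORB at 1.06 and 1.04.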

How the data were processed

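Each sample was hybridised to 1 array, and the deposited table holds 1 log2 value per feature and sample. Not given in the sources used here are the authors' background correction, normalization, log base and array design, and the deposited values were read as log2 because they lie between 4.04 and 14.78. If the base were another, folds would change.

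Array medians lay within 0.1, so values were kept as deposited. Values under the 5th percentile (4.68) were raised to it, and 17271 features with a mean at or above 5.64, percentile 40 of all feature means, were kept. The brightest feature stood for a gene (16905 tested, 9682 of them named genes). Features were named through Entrez identifiers and the RefSeq table of TAIR10.1. It held 17491 of the 17579 features that the platform annotation names, and 11206 features are unnamed here. The build behind the array is not given in the sources used here, and no coordinates are printed. Lines and wild type were compared by limma 3.58.1 in R 4.3.3 (lmFit, eBayes with trend, two-sided, Benjamini-Hochberg over all features). The fit has 1 residual and 6.77 prior degrees of freedom and was tested on simulated data. The simulated wild-type array was given the spread seen between the lines, so that test cannot check the assumption that wild type varies like them. No pair of arrays held the same data, with at most 24 identical values. The number of arrays limits the precision.

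Members, classes and lists were chosen with earlier results of these data known, and classes of loci with a locus tag only rest on general knowledge. Described in full are all tested genes of classes with up to 4, the 3 highest and 3 lowest of larger classes, and the 3 genes furthest apart between the lines each way. Alternatives were 4 other scalings, 3 other dim filters, no floor, other treatment of several features, no variance trend and leaving out each line.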

Additional observations from a re-analysis of the deposited data

Results flagged for a closer look

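For 3 thylakoid genes the lines lay on opposite sides of wild type, and the difference between the lines was not tested, since each had 1 array. Of all features tested, 16.4% lay on opposite sides. AT2G44920, a pentapeptide protein gene, had a change of 0.59 in line 41 and -0.12 in line 45. Its second feature lay above wild type in both lines, by 0.17 and 0.39. The immunophilin gene AT4G19830 had -0.23 in line 41 and 0.081 in line 45. AT1G77090 of the PsbP family had -0.039 and 0.024, both close to 0.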

How the results depend on the processing

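The count of 15 risen genes stayed within 12 to 15 genes, with 0 fallen, under the 4 other scalings, both other filters on dim features, no floor, mean of features and no variance trend. It was 18 of 33 features with every feature counted. Of the 15, 11 passed in every one of these that tested them. Without a dim filter it was 0, as were the features called higher and lower in the whole table. Of the other values the median change of the genes, 0.81, was 0.36 after quantile normalization, 0.47 after cyclic loess and 1.02 with the filter at the 60th percentile, which tested 26 genes, and it ran from 0.68 to 0.85 when 1 line was left out. Leaving out either line gave 13 genes at least 2-fold higher in the other line and 0 lower. The count of features called lower in the whole table, 1231, was 2661 after quantile normalization and 1850 with the filter on wild type, which left out CURT1C, AT4G02530 and AT5G13410. The sign turned for CURT1A (-0.67) after cyclic loess and for PSBY after quantile normalization (-0.13) and loess (-0.052). It also turned for 2 genes that had not passed, AT4G24930 (-0.28 and -0.079) and AT1G77090 (0.052 after centring on the median). The PsbP family median turned to -0.18 and -0.0095. The cause was not tested. Values after leaving out a line carry no test, since no residual degrees of freedom remain. No paired analysis was possible because the groups share no replicate number.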

Other observations

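LHCB1.5 (AT2G34420), a gene of the major light-harvesting complex, had 2 features that were dim on every array. The first stood at 4.57 in wild type against 4.92 (line 41) and 5.12 (line 45), and the second at 4.38, 4.72 and 4.53. Both lay under the dim filter level and were not tested.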
